A study of Homo sapiens with 8 samples.

Results

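Numbered ZNF genes make up the largest family of human transcription factor genes. Their proteins carry arrays of C2H2 zinc fingers, each finger holding a zinc ion between paired cysteines and histidines and reading a few bases of DNA. Many of them also carry a KRAB domain, which recruits the co-repressor TRIM28 and, through it, the histone methyltransferase SETDB1, HP1 proteins and histone deacetylases to chromatin. A KRAB gene that sits in one of the tandem clusters of chromosome 19 is therefore usually a repressor, often of transposable elements, whereas several members without a KRAB domain are activators, chromatin complex subunits or RNA-binding proteins.

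The genes described here were those whose symbol is ZNF followed by a number and at most 1 letter, and that had at least 100 raw counts in both DMSO libraries of JJN3. Of 554 such symbols, 317 met the limit, out of 63677 genes in the count tables. JJN3 and H929 are human multiple myeloma cell lines, and both were given either DMSO, the vehicle, or THZ1, a covalent inhibitor of the transcription kinase CDK7, at 50 nM for 24 hours. Each of the 4 groups (JJN3 DMSO, JJN3 THZ1, H929 DMSO and H929 THZ1) had 2 RNA-seq libraries, 8 in all, with 17476443 to 19194371 counts per library. The labels do not say that the libraries of a group came from separate cultures, so p-values measure only the spread between these libraries. Just inside the limit were ZNF627 with 100 and 117 counts, ZNF542 with 104 and 101, and ZNF594 with 115 and 102 in the JJN3 DMSO libraries. Just outside were ZNF585A with 102 and 99, ZNF669 with 99 and 111, and ZNF362 with 98 and 102. The members were thus selected on their JJN3 DMSO counts, and numbers of members called in JJN3 are given as a description beside genes that passed the same limit.

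The libraries labelled H929 did not hold one source of plasma cells. Immunoglobulin lambda V genes gave 99.99% and 98.0% of the light chain V gene counts in the pair labelled H929 DMSO, against 0.212% and 0.211% in those labelled H929 THZ1 and 0.257% to 0.391% in the 4 JJN3 libraries. The second library labelled H929 DMSO also held 597 kappa counts, against 3 in the first. Plasma cell genes were detected in both labels (IRF4 at 621 to 1222 CPM), but SLAMF7 was at 0.108 and 9.63 CPM under H929 DMSO and at 470 and 484 CPM under H929 THZ1. CD22, CD2, CD14 and LYZ stayed at or under 0.323 CPM in every library, whereas CD3E was at 33.6 and 34.3 CPM in the libraries labelled H929 THZ1 and at most 4.58 CPM elsewhere. A difference between the H929 labels therefore cannot be told apart from a difference between sources, and it is written below as a difference between labels, not as a response to THZ1.

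Of the 317 members, 314 were matched to the GENCODE annotation on GRCh37. Among these, 141 lay on chromosome 19 and 173 on other chromosomes, 310 were protein coding and 4 were pseudogenes. Coding sequences of 308 members were translated. Searching them for the C2H2 pattern (Cys, 2 to 4 residues, Cys, 12 residues, His, 3 to 5 residues, His) gave a median of 10 fingers per protein and a highest number of 36, in ZNF142. A stretch like the KRAB domain was found in 193 proteins and not in 115. Proteins with it had a median of 11 fingers and those without it a median of 7. Of the KRAB members, 116 lay on chromosome 19.

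The repeat that defines the family is printed here as coding DNA, to show how far fingers of different members resemble each other. Each line is the last C2H2 pattern of 1 member, 5′ to 3′ on the coding strand, with the codons of the paired cysteines and histidines in capitals. ZNF232 and ZNF213 had the largest fall and one of the largest rises in JJN3, ZNF239 and ZNF485 moved in opposite directions in the 2 comparisons, ZNF525 and ZNF614 had the largest falls between the H929 labels, and ZNF587 and ZNF814 are neighbours with a lower share of unique windows than most members.
ZNF232, chr17:5009143-5009205 (minus strand, GRCh37): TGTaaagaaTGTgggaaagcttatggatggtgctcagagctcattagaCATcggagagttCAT
ZNF213, chr16:3191259-3191321 (plus strand): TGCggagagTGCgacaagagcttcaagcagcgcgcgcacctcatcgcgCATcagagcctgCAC
ZNF239, chr10:44052169-44052231 (minus strand): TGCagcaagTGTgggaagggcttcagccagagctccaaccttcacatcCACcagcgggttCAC
ZNF485, chr10:44112725-44112787 (plus strand): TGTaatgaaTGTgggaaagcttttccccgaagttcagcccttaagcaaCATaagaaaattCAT
ZNF525, chr19:53885153-53885215 (plus strand): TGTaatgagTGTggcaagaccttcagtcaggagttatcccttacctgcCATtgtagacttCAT
ZNF614, chr19:52519168-52519230 (minus strand): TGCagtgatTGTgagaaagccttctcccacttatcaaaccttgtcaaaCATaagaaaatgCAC
ZNF587, chr19:58371428-58371490 (plus strand): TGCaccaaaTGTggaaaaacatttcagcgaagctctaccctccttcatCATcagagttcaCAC
ZNF814, chr19:58384208-58384270 (minus strand): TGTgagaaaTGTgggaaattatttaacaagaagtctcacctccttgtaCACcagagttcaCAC

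All 8 patterns span 63 bases. The most alike pairs, ZNF587 with ZNF814, ZNF232 with ZNF485 and ZNF485 with ZNF614, shared 43 of 63 bases (68.3%), and the least alike, ZNF213 with ZNF485, shared 27 (42.9%). The reads were 50 bases long and only uniquely mapping reads were kept, so every exonic 50-base window of the members was compared with the GRCh37 chromosomes. A median of 97.9% of a member's windows occurred once, with 96.5% for members with a KRAB stretch and 99.8% for those without it. For 8 members under 80% of windows were unique, with the lowest at 41.0% in ZNF286A, followed by ZNF767 (65.0%), ZNF587 (73.3%), ZNF814 (74.7%), ZNF324B (77.5%), ZNF585B (77.9%), ZNF354A (78.7%) and ZNF532 (79.2%). Counts of these members come from part of the transcript and are uncertain, as are those of the 16 members whose symbol has several gene identifiers, of which the identifier with the highest summed count was used.

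Together the members held little of the RNA. Their summed counts were 0.904% and 0.898% of all counts in the JJN3 DMSO libraries and 0.764% and 0.791% in the JJN3 THZ1 libraries. The share was lower in both THZ1 libraries than in either DMSO library, whose counts the member rule used. All genes at the same limit held 99.2% and 99.1% of counts in JJN3 DMSO and 98.9% in each JJN3 THZ1 library. Under the H929 labels the share of the members was 0.816% and 0.808% in DMSO and 0.724% and 0.744% in THZ1. The median member had a mean of 15.4 CPM over the 8 libraries, with a range of 2.46 (ZNF629) to 296 CPM (ZNF207), against a median of 46.7 CPM for the 9818 genes that passed the same limit. Bulk RNA does not separate fewer cells from less RNA per cell.

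Per kilobase of exon, the highest mean levels over the 8 libraries were those of ZNF146 (42.2 CPM per kb), a protein made almost entirely of fingers, ZNF664 (40.5), ZNF217 (39.1), a CoREST-associated protein often amplified in cancer, ZNF622 (31.8) and ZNF768 (29.3). ZNF217 changed most among these: its level per kilobase was 24.5 in JJN3 DMSO, 40.0 in JJN3 THZ1, 16.0 under the H929 DMSO label and 75.8 under the H929 THZ1 label. ZNF207, a kinetochore and spindle protein known as BuGZ, had the highest mean CPM over the 8 libraries, with counts of 5952 and 6166 in JJN3 DMSO and 5057 and 4790 in JJN3 THZ1. The 2 conditions of ZNF207 overlapped once scaled to library size, and its log2 fold change was -0.10 ± 0.09 (SE), not called.

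In JJN3, more members were lower after THZ1 than higher. A gene was called when edgeR's quasi-likelihood test gave it a Benjamini-Hochberg adjusted p under 0.05 and its log2 fold change passed 0.5. Libraries were scaled by TMM, so lower and higher are relative to the other genes. A change in total RNA per cell was not measured. By this rule 99 of 317 members were called lower (31.2%) and 38 higher (12.0%). Over all 13984 genes tested, 21.3% were called lower and 20.6% higher, and over the 9818 genes at the same count limit the shares were 25.4% and 17.0%. The median log2 fold change was -0.22 for members and -0.08 for genes at the limit. Most changes were moderate, since 31 members were lower and 5 higher beyond a log2 fold change of 1.

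**Figure D1:**
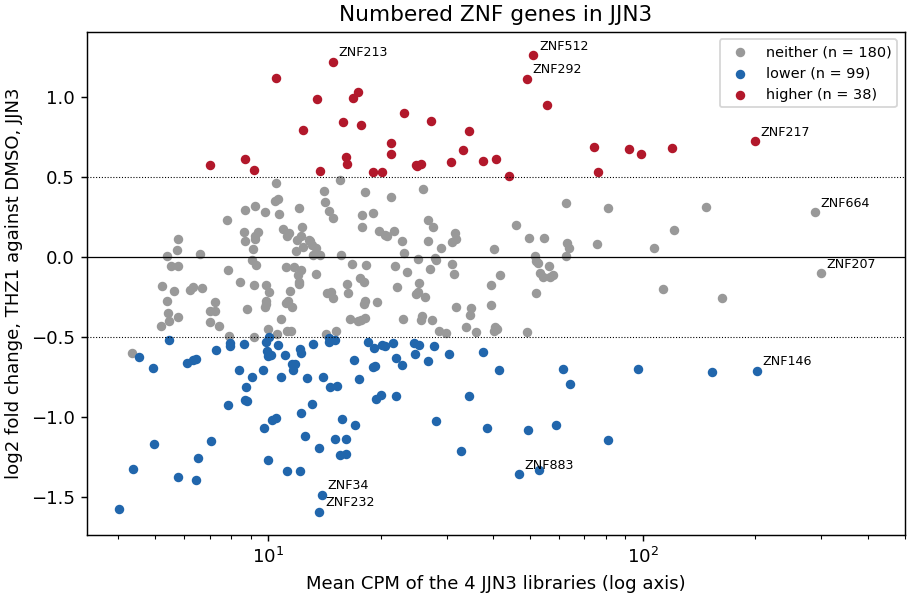
Log2 fold change of each of the 317 numbered ZNF genes in JJN3 (THZ1 against DMSO, vertical axis) against its mean CPM over the 4 JJN3 libraries (log axis), with 1 point per gene, blue for the 99 called lower, red for the 38 called higher and grey for the 180 called in neither direction. Falls reach -1.59 (ZNF232) and rises 1.26 (ZNF512), and the dotted lines mark the fold limit of 0.5.

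The largest fall was that of ZNF232, a SCAN-domain zinc finger protein, which had 395 and 410 counts in JJN3 DMSO and 114 and 119 in JJN3 THZ1. Its level went from 20.7 ± 0.4 to 6.79 ± 0.25 CPM (SD, n = 2 each), a log2 fold change of -1.59 ± 0.13 (SE, edgeR adjusted p = 3.5e-06). ZNF883 had the highest counts among the 8 largest falls, with 1332 and 1302 in DMSO and 429 and 469 in THZ1 (-1.36 ± 0.09, edgeR adjusted p = 1.0e-06). ZNF34 had 393 and 409 counts in DMSO and 121 and 129 in THZ1 (-1.49 ± 0.13, edgeR adjusted p = 4.9e-06). In these genes the THZ1 libraries were close to each other and far below both DMSO libraries.

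ZNF239 fell by a similar amount from fewer reads, with 120 and 114 counts in DMSO and 46 and 22 in THZ1 (-1.58 ± 0.31, edgeR adjusted p = 0.0011). Both THZ1 libraries were below both DMSO libraries, and they differed from each other more than the DMSO libraries did. ZNF641 (-1.40 ± 0.22), ZNF324B (-1.38 ± 0.21), ZNF511 (-1.34 ± 0.16) and ZNF576 (-1.34 ± 0.16) completed the 8 largest falls. Of these 8, ZNF34, ZNF641 and ZNF324B carry a KRAB stretch, and 2 (ZNF324B and ZNF576) lie on chromosome 19.

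The largest rise was that of ZNF512, a zinc finger protein of few fingers, with 590 and 588 counts in JJN3 DMSO and 1348 and 1111 in JJN3 THZ1. Its level went from 30.3 ± 0.3 to 72.0 ± 14.5 CPM (SD, n = 2 each), a log2 fold change of 1.26 ± 0.12 (SE, edgeR adjusted p = 1.1e-05). Both THZ1 libraries were above both DMSO libraries, although they differed from each other more than the DMSO libraries did. ZNF213, with a KRAB and a SCAN stretch, had 179 and 172 counts in DMSO and 322 and 396 in THZ1 (1.22 ± 0.13, edgeR adjusted p = 1.6e-05). ZNF292, a large protein encoded over 114 kb and mutated in some leukaemias, had 656 and 560 counts in DMSO and 1159 and 1141 in THZ1 (1.12 ± 0.10, edgeR adjusted p = 7.0e-06). The other rises of this rank were ZNF532 (1.12 ± 0.15), ZNF789 (1.03 ± 0.12), ZNF211 (1.00 ± 0.12), ZNF707 (0.99 ± 0.13) and ZNF654 (0.95 ± 0.09).

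**Figure D2:**
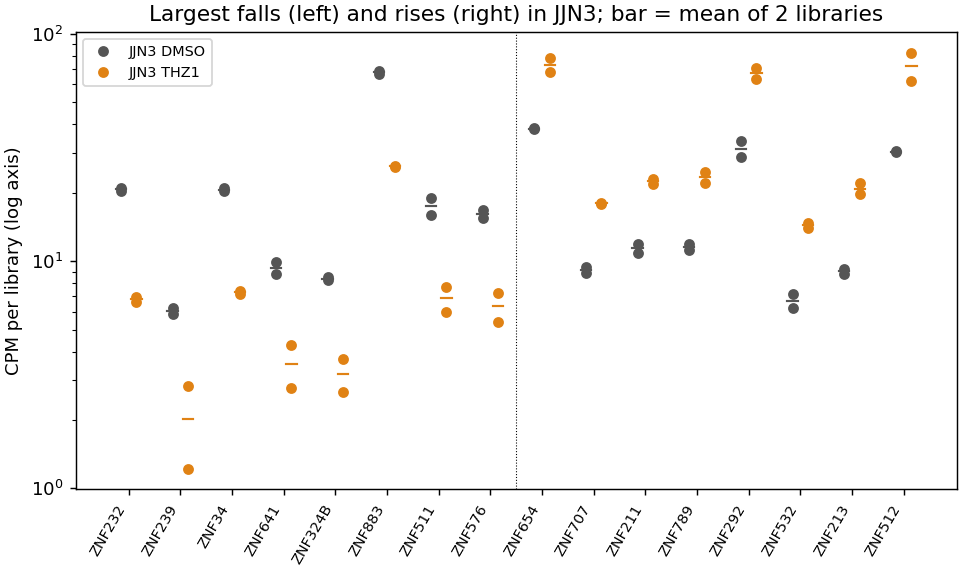
CPM of the 8 members with the largest falls and the 8 with the largest rises in JJN3 (log axis), with 1 point per library, grey for DMSO and orange for THZ1, and a bar at the mean of each pair of libraries. The genes were chosen among called members with no overlap between the groups, so both THZ1 libraries lie on the same side of both DMSO libraries by selection. On the log axis the widest gap between THZ1 libraries is that of ZNF239, at 46 and 22 counts.

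At the other end, the smallest log2 fold changes in JJN3 were those of ZNF260 (0.00 ± 0.08), ZNF227 (-0.00 ± 0.12), ZNF333 (0.01 ± 0.20), ZNF622 (0.01 ± 0.08) and ZNF567 (-0.01 ± 0.11). ZNF622, which acts in ribosome maturation, had 1238 and 1199 counts in DMSO and 995 and 1151 in THZ1, which overlap once scaled. A value near 0 with such an error leaves room for changes of the size of the error.

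Members known as sequence-specific DNA-binding regulators moved in both directions in JJN3. Of the 10 that met the count limit, 3 fell and 1 rose, shares of 30% and 10% against 25.4% and 17.0% of all genes at the limit. ZNF76 and ZNF143 are related activators that bind the same promoter element. ZNF76 had 995 and 1033 counts in DMSO and 375 and 471 in THZ1 (-1.07 ± 0.10, edgeR adjusted p = 6.9e-06). ZNF143 had 467 and 472 in DMSO and 258 and 302 in THZ1 (-0.55 ± 0.11, edgeR adjusted p = 0.0013). Both activators were lower in each THZ1 library. ZNF146 went from 4910 and 4862 to 2262 and 2977 counts (-0.71 ± 0.10, edgeR adjusted p = 8.6e-05). The rise was that of ZNF148 (ZBP-89), a GC-box binding factor, from 1387 and 1382 to 1947 and 1904 counts (0.67 ± 0.08, edgeR adjusted p = 5.4e-05). ZNF24 (0.17 ± 0.08), ZNF263 (0.11 ± 0.10), ZNF335 (-0.11 ± 0.10), ZNF281 (-0.12 ± 0.08), ZNF384 (-0.03 ± 0.10) and the X-linked ZNF711 (0.01 ± 0.12) were not called.

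Of 14 members listed as chromatin complex partners, 5 rose and 1 fell in JJN3 (35.7% and 7.14%, against 17.0% and 25.4% of genes at the count limit), 8 were called in neither direction, and the median log2 fold change was 0.23. The list was not tested. ZNF217 had 3050 and 2830 counts in DMSO and 4249 and 4221 in THZ1 (0.72 ± 0.09, edgeR adjusted p = 3.9e-05), with no overlap. ZNF532 rose from 139 and 121 to 230 and 265 counts and ZNF592 from 1257 and 1174 to 1545 and 1521 (0.53 ± 0.09). These are partners of ZNF687 in a complex that binds the chromatin reader ZMYND8, whereas ZNF687 itself was at -0.10 ± 0.09 and not called. The other rises were ZNF827 (0.58 ± 0.12), which recruits the NuRD complex to telomeres, and ZNF652 (0.67 ± 0.10), a repressor that binds CBFA2T3. The fall was ZNF512B, from 1530 and 1429 to 717 and 880 counts (-0.70 ± 0.09, edgeR adjusted p = 6.4e-05). Its paralogue ZNF512 had the largest rise of all members.

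KRAB members known to repress transposable elements, imprinted loci or other ZNF genes had 2 lower and 1 higher of 9 in JJN3 (22.2% and 11.1%, against 25.4% and 17.0% of genes at the count limit). ZNF649 fell from 421 and 440 to 204 and 240 counts (-0.76 ± 0.12, edgeR adjusted p = 0.00022). ZNF274, which guides SETDB1 to the 3′ ends of ZNF genes, fell from 1002 and 1002 to 470 and 608 counts (-0.71 ± 0.10, edgeR adjusted p = 0.00012). ZNF350 (ZBRK1) rose from 338 and 307 to 366 and 450 counts (0.53 ± 0.12, edgeR adjusted p = 0.0027). ZNF91 and ZNF93, which bind SVA and LINE-1 elements, were at -0.05 ± 0.11 and -0.38 ± 0.18 and not called. ZNF445, a guardian of imprints, was at 0.13 ± 0.14, ZNF587 at 0.16 ± 0.11, ZNF10 (KOX1) at 0.11 ± 0.13 and ZNF268 at -0.25 ± 0.12.

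Among 10 members with roles in RNA, ribosomes or mitosis, ZNF346 and ZNF259 fell in JJN3, 20% against 25.4% of genes at the count limit. ZNF346, a protein that binds double-stranded RNA, had 878 and 886 counts in DMSO and 482 and 541 in THZ1 (-0.59 ± 0.09, edgeR adjusted p = 0.00020). ZNF259, now named ZPR1, has no C2H2 pattern and binds translation elongation factors. It had 3686 and 3750 counts in DMSO and 1988 and 1953 in THZ1 (-0.72 ± 0.08, edgeR adjusted p = 3.1e-05), with no overlap. ZNF598, the ubiquitin ligase of collided ribosomes (0.12 ± 0.09), ZNF638 (0.05 ± 0.08), ZNF318 (0.06 ± 0.10), ZNF326 (-0.20 ± 0.08), ZNF706 (0.31 ± 0.08) and ZNF330 (0.34 ± 0.08) did not pass both thresholds.

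Members with and without a KRAB stretch both fell more often than they rose in JJN3. Of 193 members with it, 57 were called lower and 19 higher (29.5% and 9.84%, median -0.25). Of 115 members without it, 40 were lower and 19 higher (34.8% and 16.5%, median -0.17). Over all genes at the count limit, 25.4% were lower and 17.0% higher. On chromosome 19, 37 of 141 members were lower and 11 higher (26.2% and 7.80%, median -0.28), against 62 and 27 of 173 elsewhere (35.8% and 15.6%, median -0.16). Other genes of chromosome 19 at the same limit had 174 lower and 44 higher of 507 (34.3% and 8.68%, median -0.21), a larger share lower than that of the members there. The 17 members with a SCAN stretch had 8 lower and 1 higher (47.1% and 5.88%, median -0.45). These are descriptions of lists, and the differences between the lists were not tested.

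Gene span went with the direction in JJN3. Of 80 members spanning under 15 kb, 37 were lower and 7 higher (median -0.46), and of 110 spanning 15 to 30 kb, 37 were lower and 5 higher (median -0.30). Of 73 members of 30 to 60 kb, 21 were lower and 12 higher (median -0.20), whereas of 51 members of 60 kb or more, 4 were lower and 14 higher (median 0.10). The same order held in other genes at the count limit, with medians of -0.31, -0.22, -0.08 and 0.17 in the 4 span classes. Spearman's rho between span and log2 fold change was 0.362 across 314 members and 0.295 across 9394 other genes. These points are genes that share 4 libraries and are not independent. ZNF292 (114 kb), ZNF532 (124 kb), ZNF148 (150 kb) and ZNF827 (181 kb) are long members that rose, and ZNF511 (4.25 kb), ZNF576 (4.77 kb) and ZNF324B (6.22 kb) are short ones that fell. ZNF213 (13.0 kb), which rose, and ZNF143 (68.2 kb), which fell, went against this order.

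**Figure D3:**
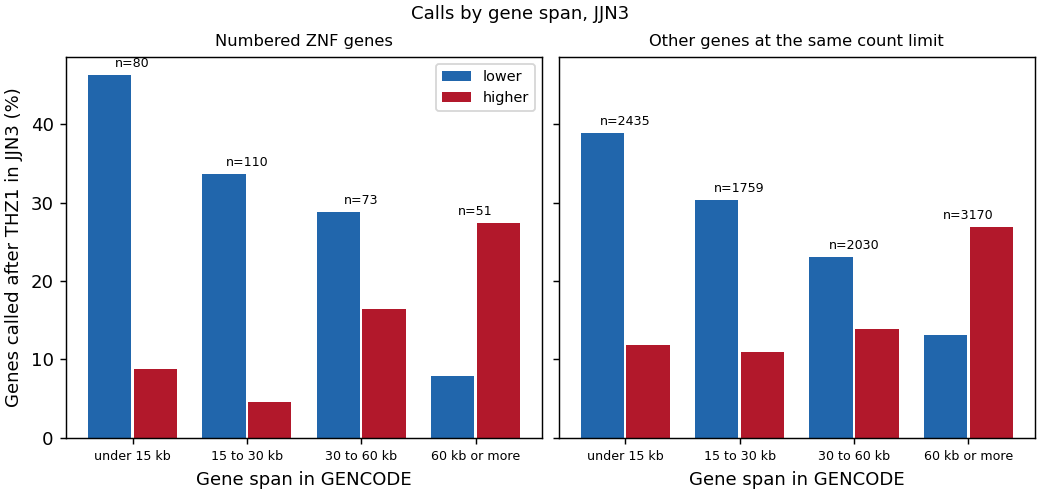
Percent of genes called lower (blue) and higher (red) after THZ1 in JJN3, by gene span, for the numbered ZNF genes (left) and for the other genes at the same count limit (right), with the number of genes over each pair of bars. Among ZNF genes 37 of 80 under 15 kb were lower, against 4 of 51 at 60 kb or more, and the other genes show the same order.

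Beside the ZNF members, other zinc finger families at the same count limit, where 25.4% of all genes were lower and 17.0% higher, were described in JJN3. Of 33 ZBTB genes, 6 were lower and 8 higher (18.2% and 24.2%, median 0.04), and of 15 ZSCAN and ZKSCAN genes, 2 were lower and 2 higher (13.3% each, median -0.31). Of 8 numbered ZFP genes, 4 were lower and 1 higher (median -0.54), the rise being ZFP36, an RNA-binding protein with fingers of another kind.

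Among 30 listed genes of the pathway through which KRAB proteins act, 7 were lower and 3 higher in JJN3 (23.3% and 10.0%), with a median of -0.02. The share lower was near the 25.4% of genes at the count limit, of which 17.0% were higher. TRIM28 itself had 9095 and 9421 counts in DMSO and 6794 and 8389 in THZ1 (-0.10 ± 0.09, not called), and SETDB1, at -0.43 ± 0.08, stayed inside the fold limit. The lower genes were MORC2 (-0.87) and FAM208A (-0.80), which belong to HUSH-linked silencing, the HP1 protein CBX5 (-0.84), the methyltransferases SUV39H1 (-0.83), SUV39H2 (-0.58) and DNMT3B (-0.76), and UHRF1 (-0.68). The higher genes were the chromatin remodeller ATRX (1.00), TRIM33 (0.90) and HDAC1 (0.54).

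Between the H929 labels the members differed more widely. Of the 317 members, 314 passed the filter on low counts, and 141 of these were called lower (44.9%) and 69 higher (22.0%) in the libraries labelled THZ1. Over all 14863 genes tested, 32.6% were lower and 33.1% higher, and over the 9677 genes that also met the JJN3 count limit, 31.1% and 29.0%. The median member was at -0.37 on the log2 scale, and -0.36 over all 317 with ZNF239 and ZNF365 at their bounds and the other near-zero members at the ratio of their summed counts. The 3 members not tested (ZNF365, ZNF470 and ZNF804A) had 0 to 1 counts in each library labelled DMSO and 1 to 8 in each labelled THZ1. ZNF365 had 0 and 0 counts against 4 and 1, at least 1.61-fold higher when the group at 0 is set to 3 counts in all.

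Most of the lower calls between the H929 labels, 88 of 141, lay on chromosome 19. There, 88 of 140 members tested were lower and 22 higher (median -0.90), against 52 lower and 46 higher of 171 on other chromosomes (median -0.03). Other genes of chromosome 19 at the limit had 148 lower and 114 higher of 506 (median -0.03), near the values of genes elsewhere. KRAB members on chromosome 19 had 74 lower of 115 (median -0.96), and KRAB members on other chromosomes 25 lower of 77 (median -0.17). The differences between these lists were not tested.

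Runs of at least 5 members, each starting at most 500000 bases from the start of the one before, gave 9 clusters along chromosome 19, numbered in order. Only ZNF genes that met the count limit were used to set these runs. The last 3 carried most of the lower calls. In cluster 7 (chr19:52074536-54083523 on GRCh37, ZNF175 to ZNF331), 24 of 29 members were lower (median -1.21). In cluster 8 (chr19:55987984-57137849, ZNF628 to ZNF71), 8 of 9 members tested were lower (median -1.67). In cluster 9 (chr19:57831840-58986803, ZNF543 to ZNF324), 28 of 31 were lower (median -1.80). Other genes at the count limit inside these 3 clusters were lower too, with 3 of 3 in cluster 7 (PPP2R1A at -1.91), 7 of 7 in cluster 8 (U2AF2 at -1.06 and EPN1 at -2.29) and 4 of 5 in cluster 9, the exception being ZIK1 at 4.44.

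The other clusters varied. Cluster 3 had 3 of 5 members lower (median -0.51). Cluster 2 (chr19:11670189-12744654, ZNF627 to ZNF791) had 6 of 8 members higher (median 0.79), and cluster 6 had 3 lower and 4 higher of 13 (median -0.00). Cluster 5 (chr19:36705504-37979554, ZNF146 to ZNF570) had 12 of 17 lower (median -0.79). It was also the cluster with the most falls in JJN3, 9 of 17 (52.9%, median -0.52), against 25.4% of genes at the count limit. In clusters 7, 8 and 9 the JJN3 counts were 5 of 29, 3 of 10 and 7 of 31 lower (17.2%, 30% and 22.6%), on both sides of that share.

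**Figure D4:**
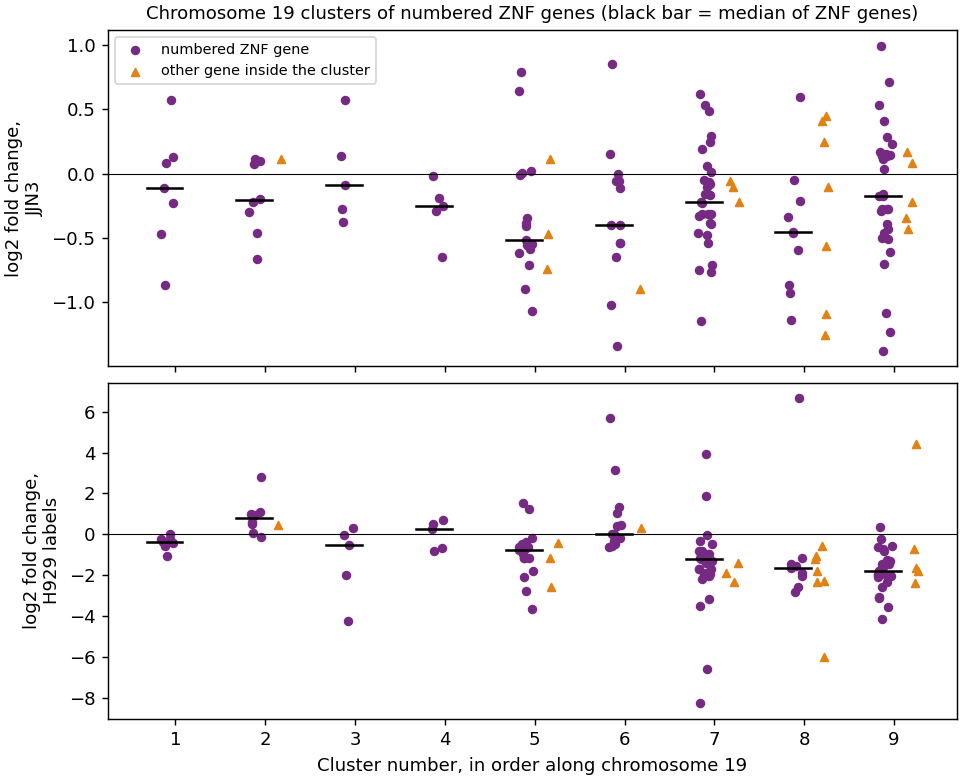
Log2 fold change, THZ1 against DMSO, of the numbered ZNF genes (purple points) and of other genes at the count limit (orange triangles) in the 9 clusters of chromosome 19, in JJN3 (top) and between the H929 labels (bottom), with a black bar at the median of the ZNF genes. The medians of clusters 7, 8 and 9 are -1.21, -1.67 and -1.80 between the H929 labels, and the vertical scales of the panels differ.

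Levels by library showed which libraries stood low. In cluster 9 the median member was at 12.4 and 13.2 CPM in JJN3 DMSO, 11.0 and 11.9 in JJN3 THZ1, 14.2 and 14.2 under H929 DMSO, and 4.67 and 4.22 under H929 THZ1. In cluster 8 it was at 31.4 and 29.6 CPM under H929 DMSO, 7.25 and 6.44 under H929 THZ1, and between 8.16 and 11.4 in JJN3. In cluster 7 it was at 12.8 and 11.5 under H929 DMSO, 4.88 and 4.43 under H929 THZ1, and between 12.5 and 15.1 in JJN3. The libraries labelled H929 THZ1 were thus below the 6 others in each of these clusters, and in cluster 8 those labelled H929 DMSO were above the rest.

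The largest single falls between the H929 labels were all of chromosome 19 KRAB genes. ZNF525 had 188 and 192 counts under DMSO and 0 and 1 under THZ1, against 198 to 283 in JJN3, and the ratio of its summed counts was 394-fold with a 95% exact interval of 70.3 to 15595. ZNF614 had 959 and 839 counts under DMSO and 5 and 14 under THZ1 (-6.59 ± 0.19, edgeR adjusted p = 4.6e-14), against 513 to 921 in JJN3. Both genes were nearly silent in the libraries labelled H929 THZ1 alone. ZNF506 (-4.23 ± 0.31), ZNF606 (-4.17 ± 0.25), ZNF790 (-3.66 ± 0.21) and ZNF551 (-3.54 ± 0.12) followed, each with at least 4 counts in every library.

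The sequences before the start sites of the 2 most extreme cases are printed here, since the start sites of ZNF genes are rich in CG dinucleotides. They are the 250 bases upstream in RefSeq, on GRCh38.p14 and not the GRCh37 coordinates used elsewhere, 5′ to 3′ on the gene's strand with each CG in capitals.
ZNF614, chr19:52028380-52028629 (minus strand, GRCh38.p14): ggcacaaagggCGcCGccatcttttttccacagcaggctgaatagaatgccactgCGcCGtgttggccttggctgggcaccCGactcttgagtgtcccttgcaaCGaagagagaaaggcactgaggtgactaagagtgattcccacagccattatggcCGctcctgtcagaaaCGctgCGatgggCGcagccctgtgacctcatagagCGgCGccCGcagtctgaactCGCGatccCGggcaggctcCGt
ZNF525, chr19:53365455-53365704 (plus strand, GRCh38.p14): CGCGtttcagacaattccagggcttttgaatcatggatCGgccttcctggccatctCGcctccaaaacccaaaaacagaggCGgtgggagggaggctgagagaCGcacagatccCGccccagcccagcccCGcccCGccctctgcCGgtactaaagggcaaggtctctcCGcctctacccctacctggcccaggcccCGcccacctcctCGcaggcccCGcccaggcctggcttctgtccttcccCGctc

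These stretches hold 17 and 15 CG dinucleotides. Over the RefSeq windows from 250 bases before to 50 after a start site, the 275 members with an entry had a median of 23, against 14 over all 27305 entries, and 95.8% of all entries held at least 1. CG reads the same on both strands. Across members the number of CG had a Spearman's rho of -0.076 with the JJN3 log2 fold change (n = 275) and 0.0036 with the difference between the H929 labels (n = 272), which share the libraries described above.

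Among all members, 10 had at most 3 counts in both libraries labelled H929 DMSO. ZNF239 had 0 and 0 counts there and 51 and 38 under THZ1, at least 28.6-fold higher with the group at 0 set to 3 counts in all. ZNF197, a KRAB and SCAN gene, had 0 and 2 counts against 138 and 165, a ratio of 146 with a 95% exact interval of 40.1 to 1213. ZNF542, a pseudogene now named ZNF542P, had 0 and 1 counts against 75 and 55, a ratio of 125 (22.1 to 4992). In all 3 the JJN3 DMSO libraries held 101 to 340 counts. The member rule required at least 100 there, so this contrast with the libraries labelled H929 DMSO was fixed by the selection.

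Also near 0 under H929 DMSO and higher under H929 THZ1 were ZNF485 (0 and 1 against 44 and 47 counts, ratio 87.8, interval 15.4 to 3506), ZNF285 (0 and 2 against 54 and 67, ratio 58.4, interval 15.8 to 488) and ZNF32 (0 and 3 against 71 and 85, ratio 50.2, interval 16.9 to 246). ZNF629 (3 and 1 against 13 and 24, ratio 8.93, interval 3.21 to 34.5), ZNF470 (0 and 1 against 7 and 6, ratio 12.5, interval 1.88 to 533) and ZNF804A (0 and 1 against 8 and 3, ratio 10.6, interval 1.54 to 457) were low under both labels. The intervals cover counting error only. In 9 of the 10 genes the first of these libraries had 0 counts, and in 7 of those 9 the second, which is the one with the 597 kappa counts, had 1 to 3. ZNF518B, with 0 and 11 counts against 616 and 685 (6.81 ± 0.29, edgeR adjusted p = 3.8e-12), and ZNF711, with 0 and 4 against 121 and 133 (5.86 ± 0.43, edgeR adjusted p = 3.0e-09), showed the same uneven pair of DMSO libraries. The part of cells carried over from another source in these counts was not tested.

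ZNF32, ZNF239 and ZNF485 are neighbours on chromosome 10, within 92.5 kb (chr10:44051792-44144329 on GRCh37). In JJN3 all 3 fell after THZ1. ZNF485 went from 189 and 192 to 48 and 103 counts (-1.15 ± 0.25, edgeR adjusted p = 0.0021) and ZNF32 from 270 and 354 to 121 and 204 (-0.75 ± 0.20, edgeR adjusted p = 0.0069). All 3 were lower in both JJN3 THZ1 libraries and near 0 in the libraries labelled H929 DMSO.

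By role, all 9 members known as repressors of transposable elements, imprinted loci or ZNF genes were lower under H929 THZ1, with a median of -1.29, against 31.1% of genes at the count limit. Of all KRAB members tested 51.6% were lower (median -0.56), and of those on chromosome 19 64.3% (median -0.96). A link with the role itself was not tested. ZNF93 had 208 and 181 counts under DMSO and 48 and 52 under THZ1 (-2.00 ± 0.17, edgeR adjusted p = 2.1e-08). ZNF649 (-1.94 ± 0.31), ZNF350 (-1.72 ± 0.19), ZNF587 (-1.48 ± 0.11), ZNF91 (-1.29 ± 0.11), ZNF274 (-1.29 ± 0.08), ZNF10 (-1.29 ± 0.20), ZNF445 (-0.83 ± 0.11) and ZNF268 (-0.56 ± 0.14) were called too. Of these, ZNF649, ZNF350, ZNF587 and ZNF274 lie in clusters 7 and 9 and ZNF93 in cluster 3, while ZNF445, ZNF10 and ZNF268 lie on other chromosomes.

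TRIM28, their shared co-repressor, had 19224 and 19286 counts under H929 DMSO and 6345 and 5844 under H929 THZ1, a log2 fold change of -1.71 ± 0.06 (edgeR adjusted p = 3.3e-13). SETDB1 went the other way, from 1080 and 1088 to 1605 and 1676 counts (0.55 ± 0.06, edgeR adjusted p = 6.2e-07). Of the 30 pathway genes, 15 were lower and 4 higher between these labels (50.0% and 13.3%, against 31.1% and 29.0% of genes at the limit). A link between the level of TRIM28 and those of the KRAB members was not tested.

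Among the sequence-specific DNA-binding regulators, 3 were lower and 3 higher of 10 between the H929 labels (30% each, against 31.1% and 29.0% of genes at the limit), with ZNF281 at -1.28 ± 0.06, ZNF146 at -1.15 ± 0.06 and ZNF335, a regulator of neural progenitors, at 1.17 ± 0.07. Among chromatin partners 5 were lower and 6 higher of 14 (35.7% and 42.9%). ZNF217 had 1845 and 1772 counts under DMSO and 8685 and 9095 under THZ1 (2.25 ± 0.06, edgeR adjusted p = 5.8e-15), and ZNF532 was higher as well (2.59 ± 0.27). ZNF827 went the other way, from 158 and 135 to 36 and 31 counts (-2.17 ± 0.20). Of the RNA and ribosome list, ZNF622 was higher (1.50 ± 0.08), as were ZNF706 (1.14 ± 0.06) and ZNF259 (0.69 ± 0.06), and ZNF598 was lower (-0.67 ± 0.05).

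The comparison in JJN3 and that between the H929 labels put the members in different orders. Across the 314 members tested in both, Spearman's rho of the log2 fold changes was 0.053. Of the members lower in JJN3, 44 (44.4%) were also lower between the H929 labels, which is 31.2% of those lower there. Among all genes at the count limit the same shares were 43.6% and 36.2%. The 44.4% of members was near the 44.9% of all members tested that were lower between the H929 labels. For genes at the count limit, the 43.6% stood above the 31.1% of all those tested that were lower there. This contrast was not tested. Higher in both were 8 of the 314 members, a smaller share than the 661 of 9677 genes at the count limit. They were ZNF217, ZNF532, ZNF652, ZNF654, ZNF236, ZNF367, ZNF519 and ZNF778. Opposite calls were found for 40 of the 314 members, 26 lower in JJN3 and higher between the H929 labels and 14 the reverse. Among the 9677 genes at the count limit tested in both, these numbers were 460 and 387. The share of members was larger for the first kind and near that of these genes for the second, and neither was tested.

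**Figure D5:**
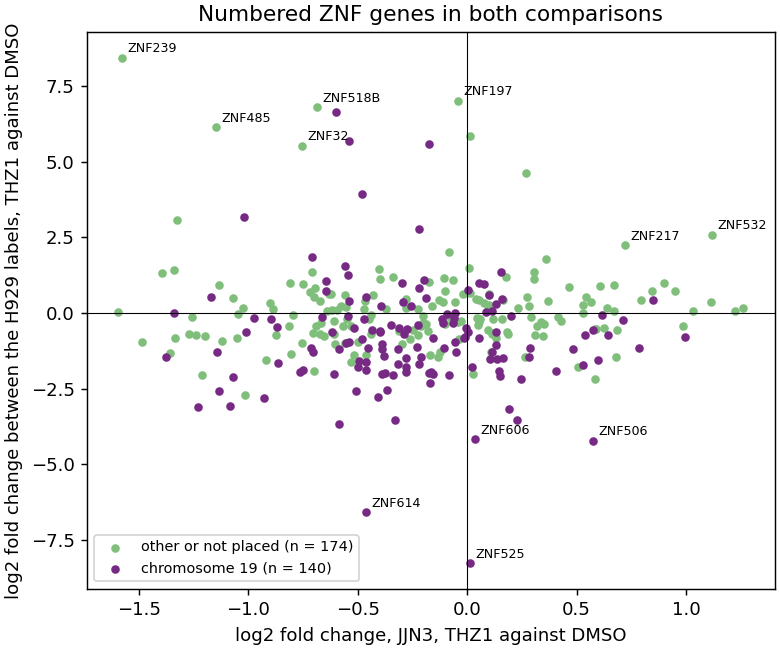
Log2 fold change of the 314 members tested in both comparisons, JJN3 on the horizontal axis and the H929 labels on the vertical axis, purple for the 140 on chromosome 19 and green for 171 on other chromosomes and the 3 with no place in the annotation, with 1 point per gene. Spearman's rho between the axes is 0.053, the H929 axis covers about -8.29 to 8.46 and the JJN3 axis -1.59 to 1.26.

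The difference between the comparisons was tested as an interaction of line and treatment over the 8 libraries. With edgeR's quasi-likelihood test, 209 of 317 members were called (65.9%), 119 with a lower and 90 with a higher value between the H929 labels than in JJN3. Of all 16122 genes tested, 53.7% were called in either direction, and of the 9818 genes at the count limit 60.6%. The JJN3 DMSO counts that the member rule used enter this test, so the number of members called is a description. The 5 largest differences among members called in opposite directions were those of ZNF239, ZNF518B, ZNF485, ZNF32 and ZNF285, all near 0 in the first library labelled H929 DMSO.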

How the data were processed

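RNA-seq counts of JJN3 and H929 under DMSO or THZ1, 2 libraries per group, were analysed from the tables that the authors deposited. The authors aligned single-end 50-base reads to hg19 with STAR 2.5.2a, kept uniquely mapping reads and deposited raw, unnormalized counts per Ensembl gene, made with featureCounts. Its strand setting is not given in the sources used here, so overlapping and antisense genes are uncertain. The deposited tables of the authors' DESeq2 comparisons were used only to pair gene symbols with identifiers, and their fold changes and p-values were not used.

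The treatment difference was fitted separately for JJN3 and H929 in edgeR 4.0.16 (R 4.3.3, TMM, filterByExpr, quasi-likelihood test, Benjamini-Hochberg adjustment over all genes tested), and the line by treatment interaction was fitted over 8 libraries. Genes were called at the thresholds that the study used. CPM values are scaled by TMM. On simulated counts of JJN3, 74.5% of log2 changes of 1 and 95.8% of changes of 2 were called, and on those of H929, 92.3% and 97.8%. In each line 6 unchanged genes were called too. The simulation changed 200 genes per line, whereas 2972 genes were called lower and 2877 higher in the JJN3 data. These shares therefore do not measure detection in the data. A group whose libraries held 0 counts was set to 3 counts over the group for a bound, and other near-zero ratios have exact 95% binomial intervals, which cover counting error only. Gene span, exons and coding sequences came from GENCODE 44 lifted to GRCh37, coding sequences being translated in place of RefSeq proteins. A KRAB stretch needed 15 of 41 residues, and a SCAN stretch 25 of 50, to match a consensus made from the members. Members and lists were chosen with earlier results of these data known. Named genes were the role lists, the 8 largest falls and 8 largest rises in JJN3, 6 and 6 between the H929 labels, the highest and the least changed members, those near 0, those called in opposite directions, the edges of the count limit and the pathway genes called in JJN3. The largest falls and rises were taken among members called with no overlap between the groups. The members printed as sequences, the span classes and the chromosome 19 clusters were set after their values were seen. Alternatives were DESeq2 1.42.0, other scalings, filters, fold and count limits, a replicate block, and leaving out each library. Some items are not reported here.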

Additional observations from a re-analysis of the deposited data

Results flagged for a closer look

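The difference between the comparison of the H929 labels and that in JJN3, H929 labels minus JJN3 and tested as an interaction with edgeR's quasi-likelihood test over 8 libraries, singled out 5 members that were called in opposite directions. On the log2 scale it was 10.03 ± 1.02 (SE) for ZNF239 (adjusted p = 5.7e-07), 7.50 ± 0.41 for ZNF518B (adjusted p = 2.4e-10), 7.31 ± 0.77 for ZNF485 (adjusted p = 5.1e-07), 6.31 ± 0.63 for ZNF32 (adjusted p = 2.4e-07) and 6.26 ± 0.57 for ZNF285 (adjusted p = 8.5e-08). All 5 had 0 counts in the first library labelled H929 DMSO. ZNF239 had 0 in the second too, so its fitted size depends on the prior count. The others had few counts in the second library, and their fitted sizes rest mainly on those. None of the sizes is a bound. The libraries labelled H929 differ in their light chains, and source and treatment cannot be told apart there. The interaction also includes the JJN3 DMSO counts, which the member rule required to be at least 100. That selection favoured members high there and near 0 under H929 DMSO, so these values are descriptions.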

How the results depend on the processing

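The 2 libraries per group limit every comparison, and members near the count limit had few reads. The counts of members called lower and higher in JJN3 and between the H929 labels, the interaction count and both medians kept their direction under the alternatives run. With a log2 fold change beyond 1 in place of 0.5, the calls fell to 31 lower and 5 higher in JJN3 and to 87 lower and 40 higher between the H929 labels, by construction of the limit. Total counts in place of TMM gave 120 lower and 25 higher in JJN3, with the median of all genes tested at -0.10 in place of -0.00 and that of members at -0.32, against 99 lower and 38 higher. Taking members at 200 counts left 245 members, with 119 lower and 44 higher between the H929 labels. DESeq2 called 88 lower and 34 higher in JJN3. Leaving out 1 library gave 88 to 110 lower and 33 to 35 higher in JJN3. Replicate numbers did not pair the libraries (the correlation of deviations was 0.011 for JJN3 and -0.029 for H929), and with the number as a replicate block the counts were 101 and 38 in JJN3, 140 and 68 between the H929 labels and 208 for the interaction. Of 1770 values of single members under alternatives, 1660 kept their call or moved by less than 1 SE, 43 lost the call, 17 gained it and 50 uncalled values moved further.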
